A study of Mus musculus with 2 samples.

Results

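Intercalated cells are the acid-base cells of the kidney's connecting tubule and collecting duct, where they lie among the water- and sodium-handling principal cells. They move protons with a multi-subunit vacuolar proton pump (V-ATPase) and bicarbonate with chloride exchangers. Type A cells carry the exchanger Slc4a1 (AE1) on the blood side and secrete acid, while type B cells carry Slc26a4 (pendrin) on the urine side and secrete bicarbonate. In mice the forkhead transcription factor Foxi1 is needed for both types to form, and Notch signalling biases the shared precursor towards principal cells.

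Intercalated cells were chosen by their own UMI counts, as cells with 1 or more unique molecular identifiers (UMIs, each marking 1 captured transcript) of at least 3 of 7 genes: Atp6v1g3, Atp6v0d2, Atp6v1c2, Foxi1, Rhbg, Slc4a1 and Slc26a4. Cells whose deposited hybrid doublet score was over 1 were left out. The rule found 332 intercalated cells of 14565, namely 122 in the library exposed to maternal diabetes (DM_Exp) and 210 in the control library. A further 7 exposed and 27 control cells met the gene rule but not the doublet limit. Each library held cells of whole kidney from C57BL/6J pups at P2, dissociated with trypsin, frozen and run on a droplet 3' kit. The design text speaks of 1 kidney per group, of pooled cells and of male DM_Exp mice, so whether a library held more than 1 animal is not settled by it. The labels do not say how the maternal diabetes arose. There was 1 library per group, so no difference between exposed and control below has a replicate check, and all intervals (95%) cover counting error only.

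The exposed library held 28213601 UMIs over the 8930 genes listed for both libraries and the control library 39200142. Intercalated cells had a median of 7035.5 UMIs in the exposed library, against 5374.5 in the control, and ranged over 1304 to 35677 and 1266 to 44146. A median of 15.4% of their UMIs came from the mitochondrial genome in the exposed and 20.2% in the control library, compared with 5.20% and 6.93% in other cells. The libraries shared 14 cell barcodes, none of them of an intercalated cell (0 of 122 and 0 of 210).

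The forkhead family has a short core binding sequence, TGTTTAC on one strand and GTAAACA on the other, and Foxi1 belongs to this family. The bases before the start of intercalated genes were therefore read for these letters, on both strands, in the RefSeq promoter windows of build GRCm38.p6. Of the 32 genes made up of the 7 rule genes and the 25 genes most concentrated in intercalated cells (below), 23 had an entry, and 5 of these 23 held the core in the 250 bases before the start, a share of 21.7%. Among all 27025 genes with an entry the share was 3.54%, and by window it was 3.17% of 32851. Of the larger set of 177 genes with an entry that were at least 4-fold above other cells in both libraries, 10 held it (5.65%), compared with 2.63% of the 4644 measured genes. These are letter matches, not sites shown to be bound. The 5 windows are printed 5′ to 3′ on the strand of the gene with the core in capitals, from chr6:83742892-83742952 (plus strand), chr11:113710126-113710186 (minus), chr4:119637671-119637731 (plus), chr16:32797650-32797685 (minus) and chr3:59131293-59131353 (minus).
Atp6v1b1: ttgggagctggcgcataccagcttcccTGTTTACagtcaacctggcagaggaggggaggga
Cpsf4l: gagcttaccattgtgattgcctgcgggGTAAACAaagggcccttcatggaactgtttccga
Guca2a: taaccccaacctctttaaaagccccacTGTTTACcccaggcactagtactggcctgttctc
Muc20: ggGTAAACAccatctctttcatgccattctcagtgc
P2ry14: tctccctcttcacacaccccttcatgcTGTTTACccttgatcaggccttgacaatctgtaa
The core begins 98 bases before the start of Atp6v1b1, the kidney form of the pump's B subunit, and 34 bases before that of Guca2a, which encodes the peptide guanylin. The 250 bases before Atp6v1g3 (chr1:138273488-138273737, plus strand), the most abundant rule gene, hold neither form of the core and are printed whole for comparison.
Atp6v1g3: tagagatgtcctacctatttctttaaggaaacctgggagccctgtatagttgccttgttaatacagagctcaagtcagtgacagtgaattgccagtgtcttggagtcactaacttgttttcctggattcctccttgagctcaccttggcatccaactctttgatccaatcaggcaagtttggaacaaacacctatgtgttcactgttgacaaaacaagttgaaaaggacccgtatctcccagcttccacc

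The rule genes were far higher in intercalated than in other cells in both libraries, which describes the choice and is no finding. Levels are given as CPM, a gene's UMIs per 1000000 of all UMIs of the set of cells; the kit counts the 3' end once per transcript, so no length correction was made. Atp6v1g3, a G subunit of the pump, stood at 2972 CPM in exposed and 2989 CPM in control intercalated cells, against 0.995 and 3.00 CPM in other cells. Foxi1 stood at 315 and 379 CPM, against 1.24 and 1.67 CPM in other cells, and the ammonia transporter Rhbg at 410 and 454 CPM, against 4.52 and 4.95 CPM. Of the cells within the doublet limit, 4931 exposed and 8014 control cells held none of the 7 genes, 152 and 230 held exactly 1, 12 and 33 held exactly 2, and 86 and 134 held 5 or more. Cells just inside the limit, with exactly 3 genes, had 267 and 307 CPM of Atp6v1b1, a pump gene not in the rule. Those just outside, with exactly 2, had 255 and 217 CPM of it, a level closer to that of the members than to that of other cells (9.32 and 10.2 CPM). Non-members with at least 3 markers of the distal convoluted and connecting tubule held 122 and 113 CPM of it. The cells with exactly 2 rule genes also held 36588 and 30707.5 CPM of S100g, which counts among those markers, against 29172 and 30433 CPM in these tubule cells.

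Many genes outside the rule were also concentrated in intercalated cells. A gene was counted when its level in intercalated cells was at least 4-fold that in other cells in both libraries, among genes with at least 50 UMIs in members. This held for 249 of 6005 genes (4.15%), and with the rule genes left out for 242 of 5998 (4.03%). The count includes genes that were higher still in principal cells (defined below). Aqp2, for example, stood at 1624 CPM in exposed and 1385 CPM in control members, against 4939 and 6017 CPM in principal cells. Most concentrated was Aqp6, a water channel of type A cells, at 122 CPM in exposed intercalated cells against 0.249 CPM in other exposed cells, and 138 CPM against 0.186 CPM in the control. Hepacam2, an adhesion molecule, followed with 267 CPM against 0.580 CPM in the exposed and 282 CPM against 0.619 CPM in the control library, and was seen in 74.6% of exposed and 73.8% of control members. The order after these was 2610016A17Rik, Tmem61, the homeobox gene Hmx2, Cpsf4l, the type B exchanger Slc4a9 (AE4), the DM-domain factor Dmrt2, Avpr1a, Insrr, Tmem52, Oxgr1, Syn2, Tmem117, Guca2a, Tshr, Stap1, Aldh1l1, P2ry14, Plcg2, Wdr72, Atp6v1b1, Kit, Muc20 and the membrane carbonic anhydrase Car12. The 25 ratios, taking the lower library of each, ran down to 28.3-fold for Car12.

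Of these 25 genes, chosen for their height over other cells, 5 that encode receptors at the cell surface were picked out after their values were seen. The vasopressin V1a receptor Avpr1a stood at 137 CPM in exposed intercalated cells against 1.20 CPM in other exposed cells, and at 145 CPM against 1.27 CPM in the control. The alkali-sensing receptor kinase Insrr stood at 213 against 1.33 CPM in the exposed and 156 against 1.64 CPM in the control library. The receptor for alpha-ketoglutarate, Oxgr1, stood at 232 against 2.07 CPM and at 227 against 2.85 CPM. Kit, the receptor for stem cell factor, stood at 231 against 7.0 CPM and at 216 against 7.09 CPM, and the thyrotropin receptor Tshr at 42.4 against 0.207 CPM and at 39.0 against 0.712 CPM. Between the libraries the levels of these 5 genes lay within 1.5-fold of each other, as did those of most genes. Of the 5998 genes outside the rule, 2.13% were past 1.5-fold upwards and 1.02% downwards with 10 CPM added. Principal cells, taken as non-members with at least 3 of 9 principal markers (190 exposed, 334 control), held 0 and 0.650 CPM of both Avpr1a and Insrr in the exposed and control libraries.

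The V-ATPase is built from subunits, some of which exist as a general form and a form restricted to a few cell types. For the B subunit, the restricted Atp6v1b1 stood at 324 CPM in exposed and 321 CPM in control intercalated cells, against 61.1 and 56.5 CPM in principal cells and 0 and 0.706 CPM in stroma (non-members with at least 3 of 6 stromal markers). The general Atp6v1b2 stood at 106 and 95.04 CPM, against 59.2 and 58.5 CPM in principal cells and 19.0 and 27.5 CPM in stroma. For the a subunit, Atp6v0a4 stood at 399 and 409 CPM, against 29.6 and 40.9 CPM in principal cells, while Atp6v0a2 was level across the sets, at 22.7 and 22.7 CPM against 20.996 and 24.69 CPM. The restricted G, d and C forms (Atp6v1g3, Atp6v0d2 and Atp6v1c2) are rule genes, so their height is given by the choice of cells. Of the general forms, Atp6v1g1 stood at 309 and 316 CPM, against 338 and 338 CPM in other cells, and Atp6v0d1 at 82.8 and 73.1 CPM, against 78.4 and 71.6 CPM. Not every general form was level, as Atp6v1e1 stood at 1197 and 1089 CPM, against 111 and 119 CPM in other cells, and Atp6v0e at 1575 and 1663 CPM, against 260 and 268 CPM. Among subunits with a single gene, Atp6v1a, which holds the catalytic site, stood at 1293 and 1269 CPM, against 92.8 and 112 CPM in other cells, and Atp6v0b at 1373 and 1306 CPM, against 184 and 187 CPM.

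**Figure D1:**
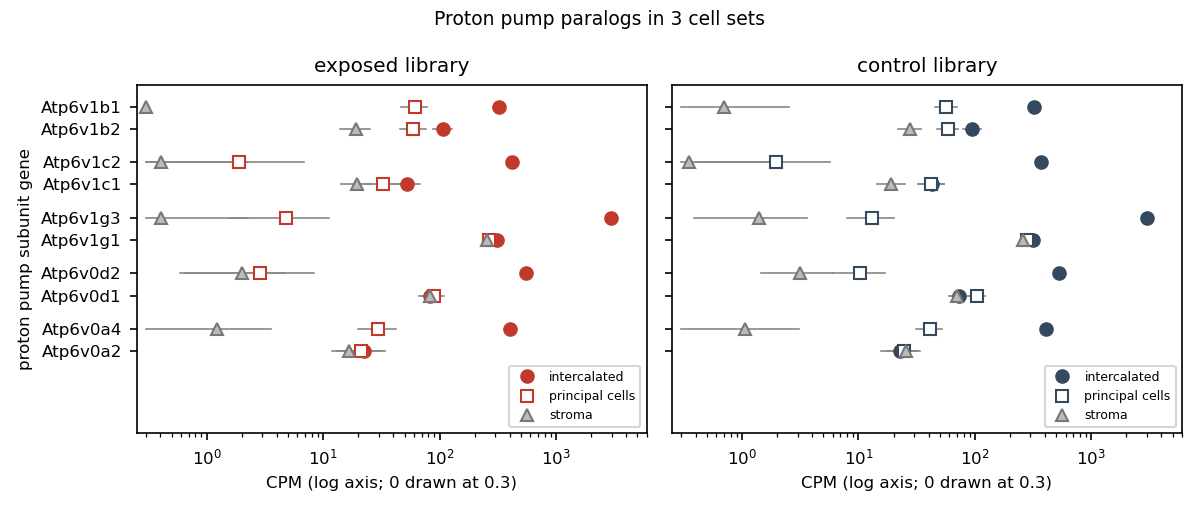
Levels of 5 pairs of proton pump subunit genes (CPM, log axis) in intercalated cells (filled circles), principal cells (open squares) and stroma (grey triangles), exposed library left and control library right; lines are exact Poisson 95% intervals (counting error only), and a level of 0 is drawn at the left edge. Atp6v1g3, Atp6v0d2 and Atp6v1c2 helped choose the cells, so their place is no finding; of the others, Atp6v1b1 (324 CPM in exposed and 321 CPM in control intercalated cells) and Atp6v0a4 (399 and 409 CPM) lie right of the other sets, while Atp6v1b2 does so less and Atp6v0a2 overlaps them.

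Between exposed and control intercalated cells, of 9 paralog subunit genes outside the rule with at least 50 UMIs, 5 were higher and 4 lower in exposed cells, with a median log2 ratio of 0.01. None was past 1.5-fold. Of all 5998 genes outside the rule 2.13% were past 1.5-fold upwards and 1.02% downwards, so a count of 0 among 9 is near the background. Of 7 single-gene subunits, 5 were higher and 2 lower, with a median of 0.03. The median of all 5998 genes was 0.07. Log2 ratios are of exposed over control with 10 CPM added to each side, which understates the change of low genes.

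Among genes of acid and base transport, 10 outside the rule were measured, 6 higher and 4 lower in exposed cells, none past 1.5-fold (median log2 ratio 0.09), again against 2.13% of all genes past it upwards and 1.02% downwards. The cytosolic carbonic anhydrase Car2 stood at 1360 CPM in exposed and 1187 CPM in control intercalated cells, against 62.1 and 62.2 CPM in other cells. Car12 stood at 885 and 647 CPM (log2 ratio 0.45) and Slc4a9 at 85.7 and 60.3 CPM (0.45). The colonic proton-potassium pump Atp12a stood at 117 and 80.1 CPM (0.50), though principal cells held as much, at 159 and 109 CPM. The ammonia channel Rhcg stood at 554 and 501 CPM and was shared with principal cells (373 and 370 CPM), unlike Rhbg (68.7 and 67.6 CPM there). Bsnd (144 CPM in exposed and 157 CPM in control members) and the endosomal exchanger Clcn5 (430 and 488 CPM) were above other cells by at least 17.6-fold and 15.3-fold in each library.

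The type A and type B genes rarely met in a cell. Slc4a1 (chromosome 11, 102348824 to 102366203, minus strand, GENCODE M21 on GRCm38) had 130 UMIs in 40 exposed members and 242 UMIs in 77 control members. Slc26a4 (chromosome 12, 31519827 to 31559969, minus strand) had 239 UMIs in 39 exposed members and 185 UMIs in 34 control members. Only 2 cells in each library held both, while 45 exposed and 101 control members held neither. Both genes entered the rule, so their overlap is a description.

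**Figure D2:**
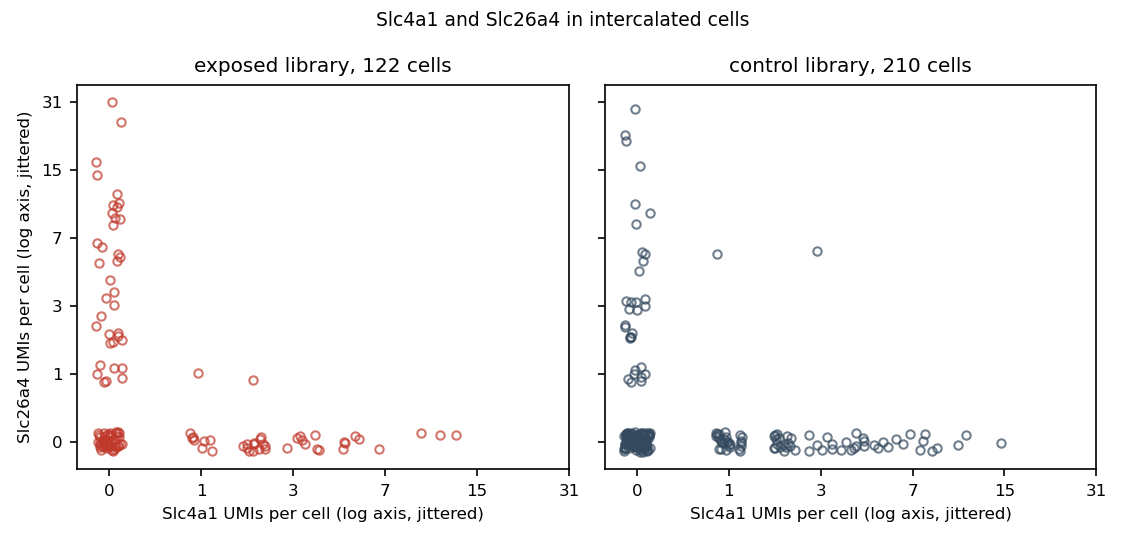
Slc4a1 UMIs (horizontal) and Slc26a4 UMIs (vertical) of each intercalated cell, on log axes with jitter, exposed library left (122 cells) and control library right (210 cells). Cells lie along the axes, and 2 in each library hold both genes.

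Genes other than the exchangers divided along the same line. The counts that follow leave out only the exchangers, so the rule gene Atp6v1c2 is among those higher with Slc26a4. Between cells with Slc4a1 alone (38 exposed, 75 control) and cells with Slc26a4 alone (37 exposed, 32 control), 41 of 6499 genes with at least 20 UMIs (0.631%) were at least 2-fold higher with Slc4a1 in both libraries, and 61 (0.939%) were at least 2-fold higher with Slc26a4. For these counts 10 CPM was added to each side, so a gene such as Atp6v0d1 (below) is not among them. Each side held a transcription factor near its head, Dmrt2 with Slc4a1 and Hmx2 with Slc26a4. Dmrt2 (chromosome 19, 25672411 to 25678991) stood at 126 CPM in exposed and 110 CPM in control Slc4a1 cells, and had 0 UMIs in the Slc26a4 cells of both libraries. Hmx2 (chromosome 7, 131548773 to 131558014) stood at 9.46 CPM in exposed and 0 CPM in control Slc4a1 cells, against 490 and 305 CPM in Slc26a4 cells. Cell by cell, none of the 39 exposed and none of the 34 control members with Slc26a4 held Dmrt2, while 47.0% and 41.5% of members without Slc26a4 did. Of members with Slc4a1, 3 exposed and 1 control cells held Hmx2, and of members with Slc26a4, 33 and 25.

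On the Slc4a1 side the leading genes were 2610016A17Rik, Dmrt2, Gpr116 (also called Adgrf5, an adhesion receptor), Aqp6, the sodium-potassium-chloride cotransporter Slc12a2, the defensin Defb1, the anion exchanger Slc26a7 and Kit. Gpr116 stood at 693 CPM in exposed Slc4a1 cells against 80.5 CPM in exposed Slc26a4 cells, and at 606 against 61.0 CPM in the control. Defb1 stood at 2550 against 413 CPM in the exposed and 2311 against 379 CPM in the control library. Kit was less even between the libraries, at 385 against 77.0 CPM in the exposed and 313 against 26.1 CPM in the control.

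On the Slc26a4 side they were Hmx2, the growth factor binding protein Igfbp5, Insrr, the pyrophosphate transporter Ank, Fam107b, the stress-induced factor Atf3, Mboat2 and the lysosomal sterol carrier Npc2. Igfbp5 stood at 97.7 CPM in exposed Slc4a1 cells against 1250 CPM in exposed Slc26a4 cells, and at 36.1 against 1577 CPM in the control. Insrr stood at 41.0 against 595 CPM in the exposed and 46.1 against 571 CPM in the control library. The exchanger Slc4a9, by contrast, differed less, at 69.3 CPM in Slc4a1 cells against 123 CPM in Slc26a4 cells of the exposed and 30.1 against 87.1 CPM of the control library, and was present in both subsets. Among pump subunits, Atp6v1b1 was even, at 344 CPM in Slc4a1 cells against 354 CPM in Slc26a4 cells of the exposed and 315 against 314 CPM of the control library. Atp6v1c2, a C subunit and rule gene, stood at 325 against 774 CPM in the exposed and 295 against 640 CPM in the control library, at least 2-fold lower in Slc4a1 cells in both. Atp6v0d1 went the same way, at 47.3 against 102 CPM and at 48.1 against 118 CPM, as did Atp6v0d2, at 564 against 875 CPM and at 522 against 701 CPM.

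**Figure D3:**
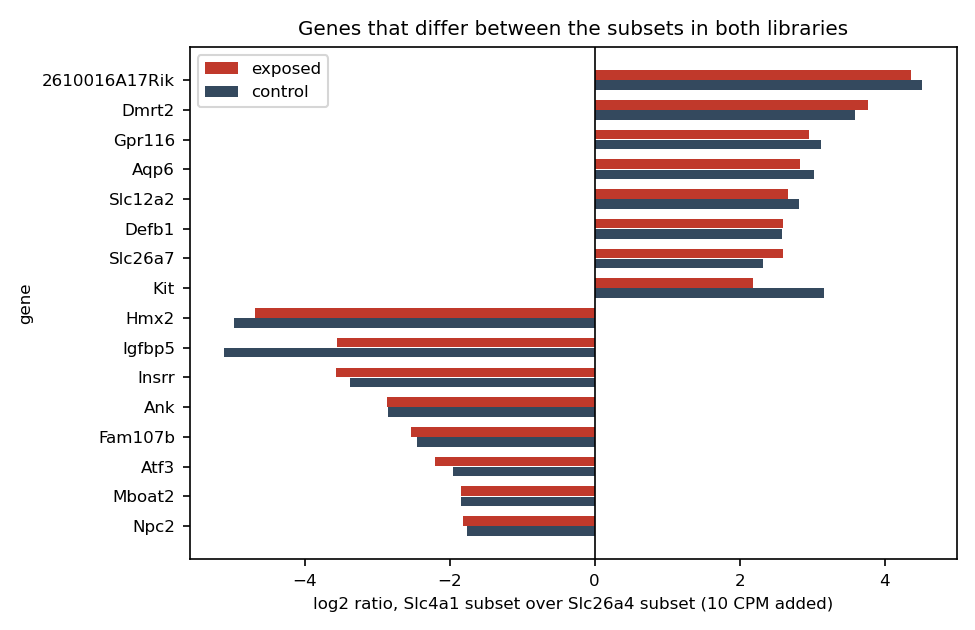
Log2 ratio of the Slc4a1 subset over the Slc26a4 subset (10 CPM added) for the 8 leading genes of each side, with the exposed library above the control library for each gene. All 16 genes point the same way in both libraries, by construction of the choice, from 2610016A17Rik at the top to Npc2 at the bottom.

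Members with neither exchanger held genes of both sides. Their Dmrt2 level was 112 CPM in exposed and 104 CPM in control cells and their Hmx2 level 112 and 54.5 CPM. Of the 45 exposed cells, 16 held Dmrt2 alone, 9 held Hmx2 alone, 1 held both and 19 held none. Of the 101 control cells, 37 held Dmrt2 alone, 13 held Hmx2 alone, none held both and 51 held none. These cells had lower summed levels of the rule genes Atp6v1g3, Atp6v0d2, Foxi1 and Rhbg (2215 and 2994 CPM, against 5598 and 5481 CPM in Slc4a1 cells and 5763 and 5576 CPM in Slc26a4 cells). Some markers of other cells were higher in them. S100g stood at 14805 CPM in exposed and 20934 CPM in control cells with neither. Slc4a1 cells held 9396 and 7844 CPM of it and Slc26a4 cells 10143 and 8011 CPM. Summed principal markers were higher in the exposed library only, at 5004 CPM, against 3180 CPM in Slc4a1 and 2283 CPM in Slc26a4 cells. In the control library they came to 2813 CPM, against 3164 and 3106 CPM. Stromal markers came to 10.2 and 145 CPM in exposed and control cells with neither, against 0 and 6.02 CPM in Slc4a1 cells. Slc26a4 cells held 0 and 13.1 CPM of them. Neutrophil markers came to 0 CPM in exposed and 191 CPM in control cells with neither, against 0 CPM in control Slc4a1 and 4.36 CPM in control Slc26a4 cells. They rest on very few cells, since S100a9 was seen in 0.952% and S100a8 in 0.476% of control members. The median depth of cells with neither was 6510 UMIs in the exposed and 4666 UMIs in the control library, lower than in both subsets. The part of depth and of these markers was not tested.

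Part of the members also carried genes of the neighbouring tubule cells. Aqp2, the water channel of principal cells, was seen in 29 exposed and 59 control members, and Slc12a3, the thiazide-sensitive cotransporter of the distal convoluted tubule, in 19 and 33. With each cell thinned to 2000 UMIs, Aqp2 was seen in 18.6% of exposed members (12.1 to 26.9) and 20.9% of control members (15.5 to 27.1), against 0.329% and 2.63% of stroma and 69.3% of exposed principal cells. Members with Aqp2 had a median of 11952 UMIs in the exposed and 9302 in the control library, against 6095 and 4774 UMIs in members without it. Their median hybrid doublet score was 0.417 and 0.530, against 0.136 and 0.179, and their Atp6v1g3 level 1368 and 1346 CPM, against 3934 and 4192 CPM. Members with Slc12a3 likewise had 1395 and 1382 CPM of Atp6v1g3, against 3406 and 3456 CPM. Whether these are mixed droplets or cells of mixed identity was not tested.

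The calcium-binding protein S100g, a gene of the distal and connecting tubule, was seen in 82.0% of exposed and 82.9% of control intercalated cells, against 6.76% and 12.4% of stroma. Its level was 11853 CPM in exposed and 14011 CPM in control members, against 11449 and 13368 CPM in principal cells. Among the 78 exposed and 127 control members without Aqp2 and Slc12a3 it was seen in 82.1% and 82.7% but at lower levels, 6209 and 4840 CPM. Cells with at least 3 of the measured distal convoluted and connecting tubule markers, among which S100g counts, held 29172 and 30433 CPM.

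The division genes Mki67 or Top2a were seen in 1.64% of exposed and 6.67% of control members. After thinning they were seen in 0 of 118 exposed cells (up to 3.08% by the exact binomial bound, a limit on cells with a UMI at this depth and not on dividing cells) and 4 of 206 control cells (1.94%, 0.532 to 4.90), intervals that overlap. Other cells gave 17.1% of exposed and 18.02% of control cells, and principal cells 5.68% and 8.51%. At least 1 gene of the longer G2/M list was seen after thinning in 34.7% of exposed and 41.7% of control members, against 64.3% and 64.5% of other cells, and of the S phase list in 44.9% and 45.6%, against 68.1% and 65.6%.

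Intercalated cells were 2.34% of exposed cells (122 of 5217 within the doublet limit, 1.95 to 2.79) and 2.47% of control cells (210 of 8487, 2.15 to 2.83), a difference of -0.136 percentage points (-0.652 to 0.407). At equal depth, with cells thinned to 2000 UMIs before the rule, the shares were 1.73% of exposed (81 of 4688) and 2.34% of control cells (164 of 7003). The difference was -0.614 points, and its interval, -1.12 to -0.0849, does not span 0. Thinning left out 529 exposed and 1484 control cells with fewer UMIs, so these denominators are not those above. The part of this loss in the difference was not tested. The members without Aqp2 and Slc12a3 gave 1.495% of exposed and 1.496% of control cells.

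The exchangers helped choose the cells, so their shares are a description, and the intervals compare these libraries and not the conditions. Slc26a4 was seen in 31.97% of exposed members (39 of 122, 23.8 to 41.0) and in 16.2% of control members (34 of 210, 11.5 to 21.9), a difference of 15.8 percentage points (6.33 to 25.5). Slc4a1 was seen in 32.8% of exposed (24.6 to 41.9) and 36.7% of control members (30.1 to 43.6), a difference of -3.88 points whose interval, -14.1 to 6.85, spans 0. Members with neither made up 36.9% and 48.1%. In stroma Slc26a4 was seen in 1 of 666 exposed cells and 1 of 942 control cells.

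The Slc26a4 share was also higher in the exposed library at equal depth and under other rules. With members thinned to 2000 UMIs, Slc26a4 was seen in 25.4% of exposed and 11.2% of control members, a difference of 14.3 points (5.64 to 23.5). With a rule of at least 3 of the 5 genes other than the exchangers, the shares were 30.3% of 119 and 16.5% of 206 members. Without members that held Aqp2 or Slc12a3 they were 37.2% of 78 and 15.7% of 127. Over the 9 alternatives the difference lay between 12.2 and 21.4 points. As UMIs rather than cells, Slc26a4 stood at 235 CPM in exposed and 131 CPM in control intercalated cells, a ratio of 1.79 (1.47 to 2.19), with 41.4% and 49.2% of its UMIs in 5 cells of each library. Among cells with Slc26a4 and no Slc4a1 its log2 ratio was 0.14.

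Hmx2, which had no part in the choice of cells, differed in the same direction. It stood at 186 CPM in exposed and 75.9 CPM in control intercalated cells, a ratio of 2.45 (1.93 to 3.14), and at 0.373 and 0.248 CPM in other cells. It was seen in 36.1% of exposed members (27.6 to 45.3) and 18.1% of control members (13.1 to 24.0), a difference of 17.97 points (8.13 to 27.9), and after thinning in 23.7% and 8.74%, a difference of 14.99 points (6.78 to 24.0). Hmx2 was found in 84.6% of exposed and 73.5% of control members with Slc26a4, so the shares of these genes are not independent measures. Dmrt2, on the other side, was seen in 31.97% of exposed and 34.8% of control members, a difference of -2.79 points (-12.9 to 7.85). Of the 8 leading genes of the Slc26a4 side, all 8 were higher over all exposed members, with a median log2 ratio of 0.41 (Fam107b, for example, at 77.8 CPM in exposed and 44.0 CPM in control cells), and of the 8 of the Slc4a1 side 1 was higher, with a median of -0.12. Of all 5998 genes, 3759 were higher. The 8 genes of each side were chosen from these same members, and Slc26a4 cells were a larger share of exposed members. The counts of 8 and 1 are therefore a description and no separate finding. Within the Slc26a4 subset 6 of the 8 Slc26a4-side and 5 of the 8 Slc4a1-side genes were higher in exposed cells, and within the Slc4a1 subset 6 of 8 and 7 of 8. The Slc4a1-side genes 2610016A17Rik, Dmrt2 and Slc26a7 had 0 UMIs in the Slc26a4 subset of both libraries, so there they were neither higher nor lower. Slc4a9 was seen in 44.3% of exposed and 30.0% of control members, but after thinning in 17.8% and 11.2%, a difference of 6.63 points whose interval, -1.09 to 15.3, spans 0.

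**Figure D4:**
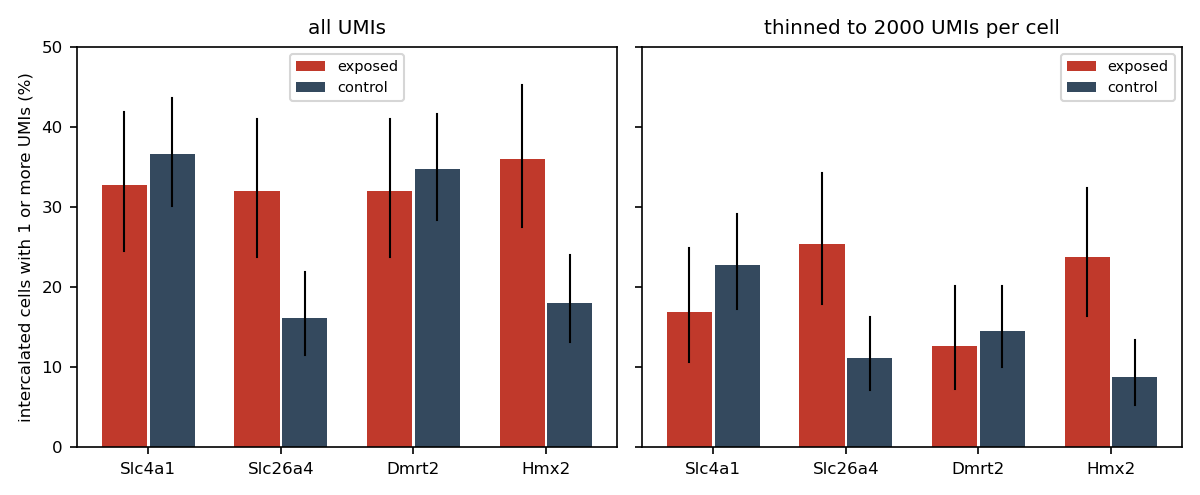
Share of intercalated cells with 1 or more UMIs of Slc4a1, Slc26a4, Dmrt2 and Hmx2, exposed left of control for each gene, on all UMIs (left) and with each cell thinned to 2000 UMIs (right); lines are exact binomial 95% intervals (counting error only). Slc26a4 and Hmx2 are higher in the exposed library in both panels (31.97% against 16.2% and 36.1% against 18.1% on all UMIs), while the intervals of Slc4a1 and of Dmrt2 overlap.

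Across all genes, 128 of 5998 were at least 1.5-fold higher in exposed intercalated cells (2.13%) and 61 at least 1.5-fold lower (1.02%). The split rests on the scaling and on doublets: with mitochondrial genes left out of the total it was 106 and 92, and with cells over the doublet limit kept it was 88 and 92. The 12 highest ratios were those of the protease Adamts1, Hmx2, Chic1, the hormone Stc1, Gnl2, Nipal1, Rbm28, Sdpr, Tox4, Mrpl44, the cholesterol-esterifying enzyme Soat1 and the Golgi complex subunit Cog8. Adamts1 stood at 81.8 CPM in exposed and 29.8 CPM in control intercalated cells, a ratio of 2.75 (1.87 to 4.08), but 45.8% and 47.6% of its UMIs lay in 5 cells. Soat1 was more evenly spread, at 87.7 and 44.7 CPM, a ratio of 1.962 (1.41 to 2.75), seen in 40.2% of exposed and 20.5% of control members. Mrpl44, a protein of the mitochondrial ribosome, stood at 72.9 and 36.2 CPM and was seen in 39.3% and 20.95%. The log2 ratio of other cells was 0.04 for Soat1 and 0.12 for Mrpl44, against 0.84 for each in intercalated cells. Stc1, at 75.9 and 33.3 CPM, had 71.4% of its exposed UMIs in 5 cells, and without the 5 cells with most of them in each library its log2 ratio was 0.14.

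The 12 lowest ratios were those of S100a9, S100a8, Podxl, Spp2, Cdkn1c, Rnaseh2c, S100a6, Klk1, Gatm, Sparc, Ranbp3l and Bex2. S100a9 and S100a8, proteins of neutrophils, had 0 UMIs in exposed members, against 71 and 56 in control members, all of them in 2 control cells for S100a9 and 1 for S100a8. Podxl, a surface protein of podocytes, stood at 3.94 CPM in exposed and 39.0 CPM in control members, with 90.9% of the control UMIs in 5 cells. Summed markers of other cell types in intercalated cells partly rest on these same genes. Neutrophil markers came to 0 CPM in exposed and 90.1 CPM in control members. The control sum is made up of S100a9 and S100a8 alone, so it is no separate observation. Podocyte markers came to 12.8 and 85.8 CPM, and Podxl was the largest part of the control sum. Stromal markers, none of which is among the 12 genes, came to 3.94 and 72.3 CPM. All 4 neutrophil markers were at 0 in exposed members, and Camp and Ngp also in control members. Of the podocyte markers Nphs1 was at 0 in exposed members, and of the 6 stromal markers Pdgfra, Dcn and Lum. Their part in the lower values was not tested. Rnaseh2c, a subunit of ribonuclease H2, was the most evenly spread of the 12, at 47.3 CPM in exposed and 104 CPM in control members, a ratio of 0.457 (0.322 to 0.637), seen in 31.1% and 43.8%; in other cells its log2 ratio was -0.09.

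Among transcription factors and Notch genes, 17 outside the rule were measured, 13 higher and 4 lower in exposed cells, with a median log2 ratio of 0.07, where 3759 of all 5998 genes were higher. Past 1.5-fold upwards (2.13% of all genes) were Hmx2 and the Notch ligand Dll1, which stood at 43.4 CPM in exposed and 23.4 CPM in control intercalated cells (log2 ratio 0.68), seen in 21.3% and 12.9%. The Notch target Hes1 stood at 255 and 184 CPM (0.45) and the ligand Jag1 at 149 and 108 CPM (0.43); in other cells the log2 ratio was 0.23 for Hes1 and 0.18 for Jag1. Dll1, Hes1 and Jag1 were also each at least 2-fold lower in Slc4a1 than in Slc26a4 cells in both libraries (Jag1 at 85.1 against 259 CPM in the exposed and 42.1 against 135 CPM in the control library). Slc26a4 cells made up a larger share of exposed than of control members, and their part in these levels was not tested. Tfcp2l1, a factor of collecting duct cells of both kinds, stood at 1127 and 1071 CPM, and Gata2 at 80.8 and 54.6 CPM (0.49).

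Lists of handling, stress and energy genes are given beside the other cells of the same libraries, with no test of the difference, and 2.13% of all genes were past 1.5-fold upwards and 1.02% downwards. Immediate early genes, which dissociation can induce, had a median log2 ratio of 0.21 (14 of 17 higher, 3 past 1.5-fold), against 0.27 in other cells; Btg2 stood at 378 CPM in exposed and 225 CPM in control members (0.73). Heat shock genes had a median of 0.23 (10 of 12 higher) and 0.23 in other cells. Glycolysis genes had 0.08 (15 of 15 higher) and 0.14, all within 1.5-fold, where 3759 of all 5998 genes were higher. The mitochondrially encoded genes had -0.24 (12 of 13 lower, 1 past 1.5-fold), against -0.47 in other cells, and nuclear genes of the respiratory chain -0.05 (48 of 63 lower, none past 1.5-fold), against -0.10. Of the subtype genes outside the rule, 6 were higher and 6 lower in exposed members, none past 1.5-fold, with a median of 0.01. Of the S phase list 6 genes were measured (2 higher, 4 lower) and of the G2/M list 2 (both lower), too few at this depth for more than these counts.

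**Figure D5:**
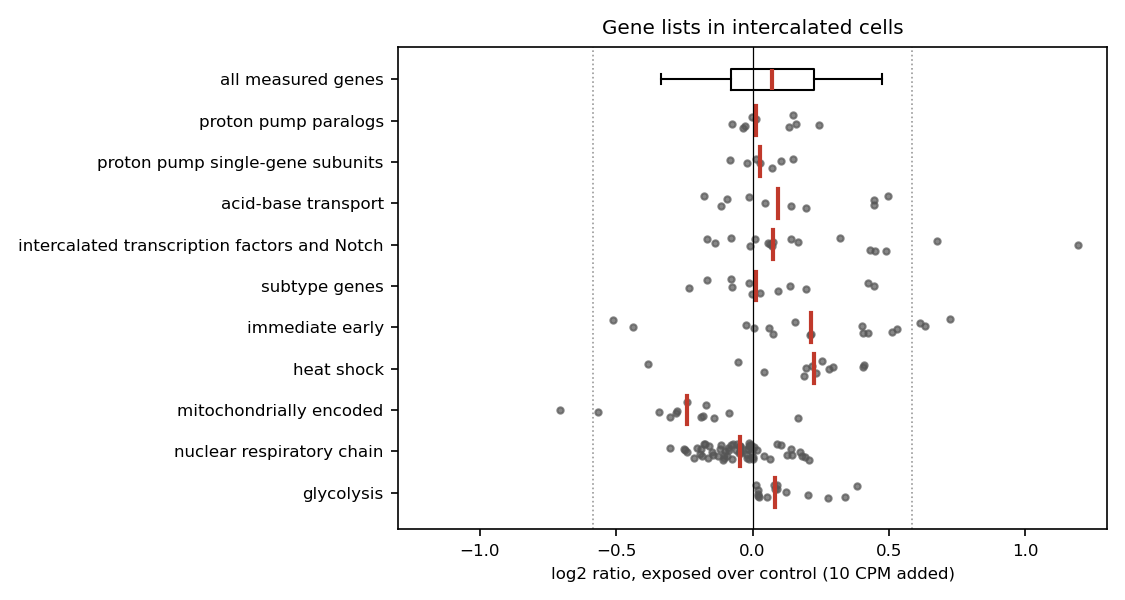
Log2 ratio of exposed over control intercalated cells (10 CPM added) for all measured genes (box, quartiles; whiskers, 5th to 95th percentile) and for each gene of 10 lists (points; red lines, medians), rule genes left out; dotted lines mark 1.5-fold. The proton pump lists lie near 0 (medians 0.01 and 0.03) and the mitochondrially encoded genes to the left (-0.24).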

How the data were processed

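Single-cell RNA was measured in 1 exposed and 1 control library of mouse kidney at postnatal day 2. The authors deposited whole-number UMI counts per gene and cell, made with Cell Ranger 2.2.0 on mm10 per the submitters' processing notes. A deposited table gives for each cell, per the file headers, the percent of mitochondrial UMIs and cxds, bcds and hybrid doublet scores; the hybrid score was used as deposited. Which tool made the scores, and how the authors filtered cells and genes, is not stated. Deposited log values were not used. All cells with a score not over 1 were kept, no doublet caller was run, and the 8930 genes listed for both libraries were used. UMIs were summed per set and library and scaled to CPM with Python 3.11.15, numpy 2.4.6, scipy 1.17.1 and pandas 2.3.3. With 1 library per group no test was made. Shares have Clopper-Pearson, differences of shares Newcombe, levels Poisson and ratios exact conditional binomial 95% intervals. These take cells or UMIs as independent, so they understate the error of genes whose UMIs sit in few cells. Ratios to other cells used a floor of 3 counts. Thinning drew 2000 UMIs per cell and left out shallower cells, 529 exposed and 1484 control cells within the doublet limit. Among these were 4 exposed and 4 control members. Named genes are the 12 highest and 12 lowest ratios of exposed to control, the 25 highest over other cells, the 8 highest of each subset, and genes of the lists of acid-base transport, pump subunits, transcription factors and Notch, and subtype genes. The ratio scripts were checked on simulated data. Genes not in the shared set were not analysed here. Of the 8930 symbols, 8606 matched GENCODE M21. Older symbols were matched through RefSeq synonyms. The members and all lists were chosen with earlier results of these data known. The alternatives left doublets in, changed the number of rule genes, thinned cells, left out cells over 25% mitochondrial UMIs, changed the added CPM, the UMI minimum, the weight of cells or the scaling, and kept 1 subset; 5 further alternatives were chosen after seeing the data.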

Additional observations from a re-analysis of the deposited data

How the results depend on the processing

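The exposed minus control difference in the share of intercalated cells lay between -0.614 and 0.0422 percentage points over 7 alternatives. That of Slc4a1 lay between -9.10 and 2.08 points over 9, so its sign depends on the setting, and that of Slc26a4 was positive in all 9. With 1 CPM added, 298 genes were at least 1.5-fold higher and 123 lower in exposed cells, and with at least 200 UMIs 19 and 4, which follows from the added CPM and from fewer genes tested. The number higher was 214 as a mean over cells and 82 in cells with Slc26a4 and no Slc4a1. The number lower was 114 with at least 20 UMIs, 92 with mitochondrial genes out of the total and 92 with cells over the doublet limit kept. Genes at least 4-fold above other cells in both libraries numbered 151 after thinning before the rule. In cells with Slc26a4 and no Slc4a1 the heat shock list turned to a median log2 ratio of -0.050, Stc1 to -0.64 and Sparc to 1.27. In cells with Slc4a1 and no Slc26a4, Stc1 turned to -0.11 and S100a6 to 0.20. S100a9 and S100a8 each came to 0 once the 5 cells richest in the gene were left out of each library. Where no construction shows it, the cause was not tested. Depth limits low genes, since 50 UMIs can lie in a few cells. No paired analysis was possible because there was 1 library per group.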
